A study of Mus musculus with 12 samples.

Results

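The genes described here carry peptides to the cell surface on MHC class I, and there are 10 of them. They were taken by gene symbol from a table of counts in retina and a table of counts in cultured cells labelled brain microvascular pericytes. All 10 were found among 32285 genes in the retina table and among 55401 in the pericyte table, and all 10 passed the filter on low counts, as did 15440 and 16975 genes in all. They are the heavy chains H2-K1 and H2-D1, the light chain B2m, the peptide transporter subunits Tap1 and Tap2, the bridging protein Tapbp, the inducible proteasome subunits Psmb8, Psmb9 and Psmb10, and the transcriptional activator Nlrc5.

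Total RNA was sequenced from 12 wild-type mouse samples in 4 groups of 3. In the retina groups the optic nerve had been crushed (ONC in the labels), and samples dated day 1 had been given MSC.sEV, small vesicles released by mesenchymal stem cells, or phosphate-buffered saline (PBS). The vesicles bear the mark i.o., an abbreviation left unexplained, and the PBS group has no such mark. Day 1 is taken as the day of sampling, and both retina groups had the crush, so no uninjured retina enters a comparison. The pericyte groups were labelled P4 and were given the same kind of vesicles or PBS for 12 hours. The labels give no sex, age or strain, no dose, and no statement that replicates came from separate mice or cultures, so p-values measure the spread between these samples. The retina columns bear only the short names CTR and M, read here as PBS and vesicles by inference, so every retina direction rests on that reading. The pericyte columns matched the sample descriptions.

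A cell cuts its own proteins with the proteasome, and the transporter Tap1/Tap2 moves the resulting peptides into the endoplasmic reticulum. There Tapbp (tapasin) holds the transporter beside a waiting heavy chain and B2m until a peptide fits, and the filled complex travels to the surface, where CD8 T cells read it and natural killer cells sense its presence. Interferons make cells swap the constitutive catalytic subunits Psmb6, Psmb7 and Psmb5 for Psmb9, Psmb10 and Psmb8, which gives the immunoproteasome and changes where proteins are cut. Nlrc5 is itself interferon-induced and acts at the promoters of most of the other genes in the set through the factors bound at their X and Y boxes. The neural retina is known as a tissue with little MHC class I in the absence of inflammation.

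Because interferon and NF-kB factors are known to reach these genes through short elements before the start of transcription, the upstream windows that carry them are shown. RefSeq windows on build GRCm38.p6 were at hand for 8 of the 10 genes, without Tap2 and Nlrc5. In the sequences the capitals mark matches on either strand to an interferon regulatory factor core (AANNGAAA), an NF-kB letter pattern (GGGNNTTCC) and the Y box letters (CCAAT). Each is 250 bases ending 1 base before the start, read on the gene's own strand. The H2-K1 window is chr17:34000348-34000597, minus strand, and H2-D1 is chr17:35262844-35263093, plus strand. H2-K1 had 2 RefSeq windows, and the one with the outermost start is used, so its motif positions depend on that choice. B2m is chr2:122147437-122147686, plus strand.
H2-K1: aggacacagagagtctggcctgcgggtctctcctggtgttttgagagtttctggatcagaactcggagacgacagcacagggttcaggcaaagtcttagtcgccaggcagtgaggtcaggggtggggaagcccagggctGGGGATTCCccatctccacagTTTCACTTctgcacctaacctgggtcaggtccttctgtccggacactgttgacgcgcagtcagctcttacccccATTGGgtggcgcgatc
H2-D1: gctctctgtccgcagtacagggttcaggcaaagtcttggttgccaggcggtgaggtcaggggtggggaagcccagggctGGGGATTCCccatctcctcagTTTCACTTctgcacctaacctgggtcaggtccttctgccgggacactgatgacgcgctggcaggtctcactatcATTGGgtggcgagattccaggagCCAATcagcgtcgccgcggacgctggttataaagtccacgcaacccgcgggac
B2m: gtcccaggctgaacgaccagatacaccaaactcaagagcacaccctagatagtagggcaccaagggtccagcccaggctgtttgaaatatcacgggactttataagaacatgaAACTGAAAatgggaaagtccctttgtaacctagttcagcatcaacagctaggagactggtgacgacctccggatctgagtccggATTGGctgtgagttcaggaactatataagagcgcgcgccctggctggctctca

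H2-K1 and H2-D1 aligned over 177 of these bases with 91.0% identity, so an order of motifs that they share is not seen independently. In both, the NF-kB letters were followed 21 bases later by the interferon factor letters on the opposite strand. That order, with no more than 30 bases from one start to the other, was in 49 of 32851 RefSeq windows of the same length (0.149%). This count took matches on either strand, so it is not limited to opposite strands. Taken singly, the interferon factor letters were in 21.3% of those windows, the NF-kB letters in 5.0% and the Y box letters in 33.8%. B2m held the interferon factor letters and a Y box. No class I window other than H2-K1 and H2-D1 matched the NF-kB letters, which allow a single spacing between GGG and TTCC. The B2m stretch ggaaagtccc, read on the opposite strand, has GGG and TTCC further apart, and the search did not mark it. An unmarked window therefore does not show that such a site is absent. A match describes letters in a window and does not show that a factor was bound.

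Tap1 and Psmb9 start back to back on chromosome 17 and share the 225 bases between their starts, chr17:34187331-34187555, printed on the Tap1 strand. Psmb9 lies on the opposite strand.
Tap1 and Psmb9: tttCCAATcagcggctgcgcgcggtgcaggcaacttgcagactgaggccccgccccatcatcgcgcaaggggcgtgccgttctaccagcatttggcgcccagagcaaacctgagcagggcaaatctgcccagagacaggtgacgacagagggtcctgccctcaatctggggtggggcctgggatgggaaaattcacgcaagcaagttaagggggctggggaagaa
The stretch held a Y box next to the Psmb9 start and none of the other patterns. Tapbp held a pair of Y boxes. Psmb8, Psmb10 and the constitutive Psmb5 matched none of these patterns, and the constitutive Psmb6 held the interferon factor letters.

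**Figure D1:**
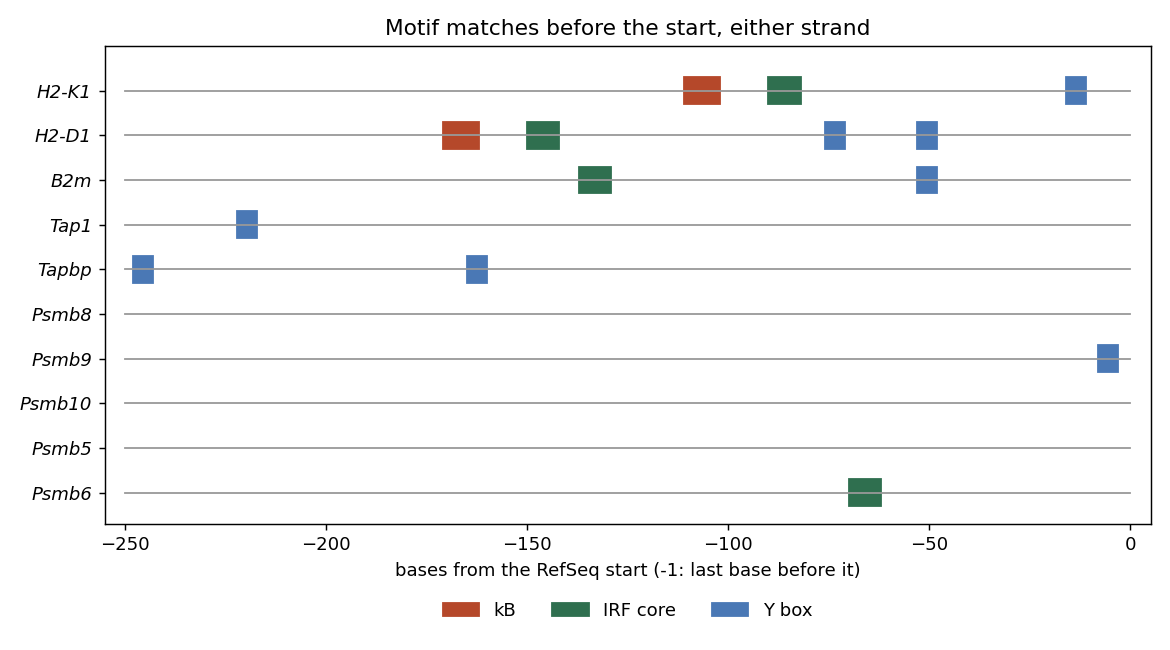
Motif matches in the 250 bases before the RefSeq start of 8 class I genes and of Psmb5 and Psmb6. The horizontal axis is the distance from the start in bases, and each box is a match on either strand, coloured by motif. The NF-kB (kB) and interferon factor (IRF core) boxes stand 21 bases apart, start to start, in both H2-K1 and H2-D1.

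Retina libraries held between 15580024 and 16842926 counts and pericyte libraries between 33001248 and 37954077. Levels are given in CPM, counts scaled to the same library total by edgeR's TMM factors. With vesicles 1648 retina genes were called higher and 801 lower at an adjusted p under 0.05, together 15.9% of those tested (5.19% lower). The total was 1401, 1381 or 1328 without vesicle library 1, vesicle library 2 or PBS library 2. In the pericyte cultures 1855 genes were called higher and 1510 lower, together 19.8% (8.9% lower). The split turned to 1558 higher and 1955 lower with upper-quartile scaling and to 1512 and 2050 with library totals. Lens mRNAs took 1.89%, 7.19% and 0.0119% of counts in vesicle retinas 1 to 3 and 0.700%, 0.0741% and 0.0647% in PBS retinas 1 to 3.

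In vesicle retinas 9 of the 10 class I genes were called higher and none lower, against 10.7% of all tested genes called higher. Tap2 missed the threshold. In all 10 genes every vesicle retina lay above every PBS retina, an arrangement that 19.5% of all tested genes showed. The median log2 fold change was 1.55 over the 10 genes and -0.02 over all tested genes, and 7 of the 10 were called at 2-fold or more, against 6.93% of all tested genes. Among the vesicle retinas library 3 was lowest in 9 of the 10 genes and library 1 was highest in 8.

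In vesicle pericyte cultures all 10 genes were called higher, against 10.9% of all tested genes, and all 10 showed no overlap between groups, against 17.4%. The median log2 fold change was 1.60 over the 10 genes, against 0.00056 over all tested genes, with a range from 0.84 for Tapbp to 3.02 for Nlrc5. At 2-fold or more 7 of the 10 were called, against 2.96% of all tested genes. The members and their direction were known from earlier results when the set was chosen, so these counts are a description.

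**Figure D2:**
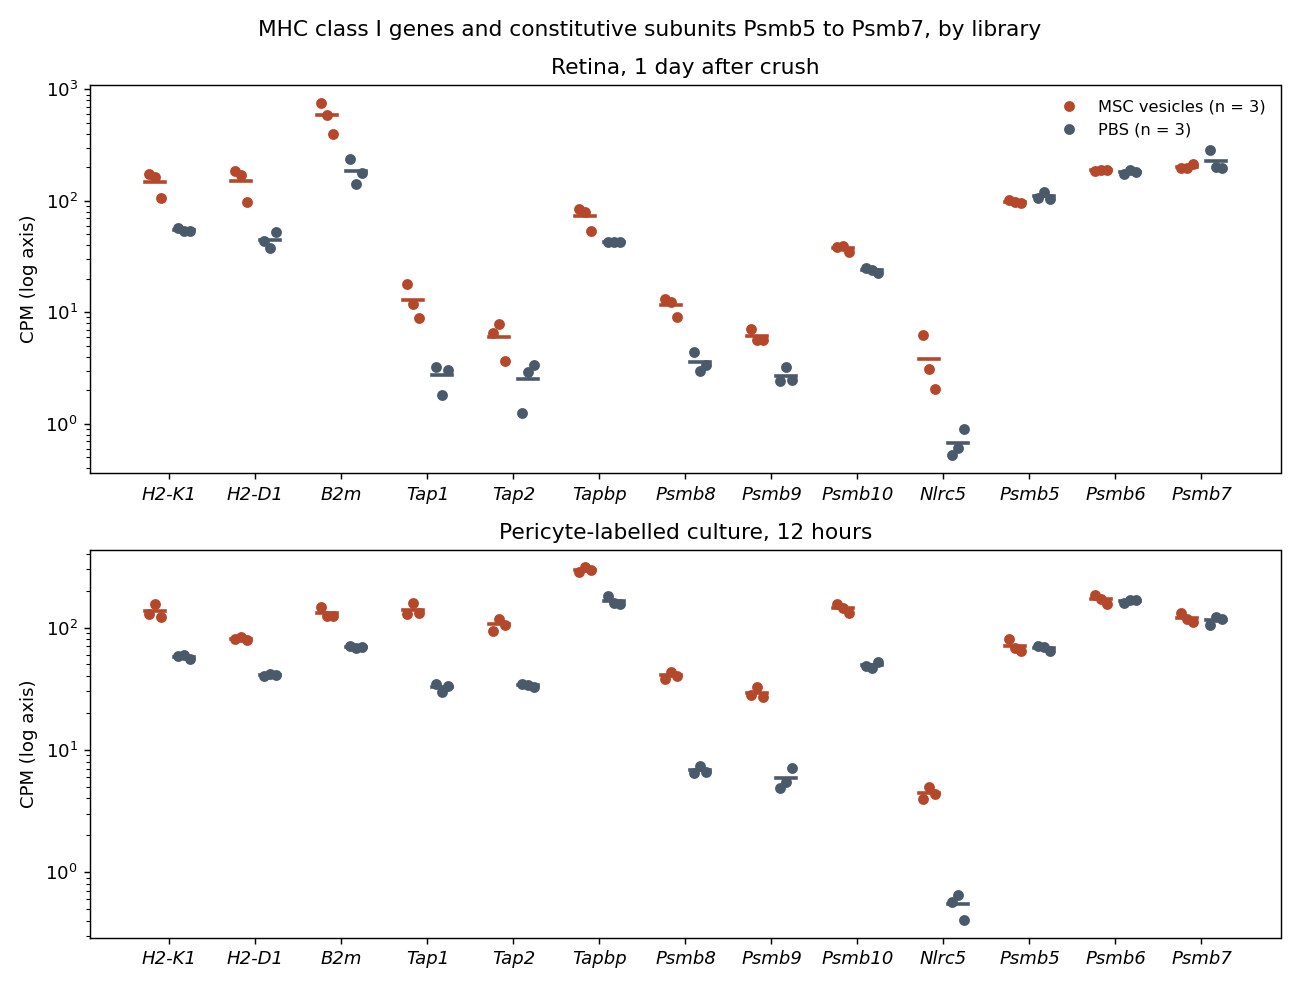
CPM of the 10 class I genes and the constitutive subunits Psmb5, Psmb6 and Psmb7 in each library, on log axes, with vesicle libraries in red left of PBS libraries in grey. Points are libraries and lines are group means (n = 3 each). The groups separate in all 10 class I genes in both panels, and in the pericyte cultures the constitutive subunits overlap.

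H2-K1 (ENSMUSG00000061232) and H2-D1 (ENSMUSG00000073411) encode the classical heavy chains that hold the peptide. H2-K1 had 176, 165 and 105 CPM in vesicle retinas, against 57.0, 53.9 and 53.2 CPM in PBS retinas. All vesicle retinas were above the PBS retinas, library 3 the least so, and the log2 fold change was 1.44 ± 0.18 (SE; adjusted p = 0.00176, edgeR quasi-likelihood test). H2-D1 had 187, 172 and 97.5 CPM in vesicle retinas, against 44.0, 38.1 and 52.5 CPM in PBS retinas. Its log2 fold change was 1.76 ± 0.26 (adjusted p = 0.00708), and the call was lost without PBS library 1 (adjusted p = 0.0509).

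In the cultures H2-K1 had 128, 156 and 122 CPM with vesicles, against 58.7, 59.1 and 55.1 CPM with PBS. The groups did not overlap, and the log2 fold change was 1.23 ± 0.08 (adjusted p = 1.24e-10). H2-D1 had 80.3, 83.1 and 79.0 CPM with vesicles, against 40.0, 41.7 and 40.8 CPM with PBS. Replicates lay within a few CPM of each other, and the log2 fold change was 0.99 ± 0.06 (adjusted p = 1.31e-10). The principal H2-K1 and H2-D1 transcripts of GENCODE M21 were 90.3% identical over 1475 aligned bases, with a longest shared run of 91 bases. The sources used here do not say how reads that fit both were counted, so the split between the heavy chains, and between them and the H2-Q genes, is uncertain.

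B2m (ENSMUSG00000060802) encodes beta-2 microglobulin, the light chain that every classical heavy chain needs to fold. It had 762, 589 and 399 CPM in vesicle retinas, against 237, 143 and 179 CPM in PBS retinas. Per length it was the most abundant of the 10 mRNAs in every retina library, and its log2 fold change was 1.65 ± 0.29 (adjusted p = 0.0136). The call was lost without vesicle library 2 (adjusted p = 0.0561). In the cultures B2m had 147, 123 and 125 CPM with vesicles, against 71.0, 67.6 and 69.1 CPM with PBS. That was a log2 fold change of 0.93 ± 0.07 (adjusted p = 1.25e-09), the smallest of the heavy and light chains there.

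Tap1 (ENSMUSG00000037321) and Tap2 (ENSMUSG00000024339) are the subunits of the peptide transporter. Tap1 had 18.1, 11.8 and 8.95 CPM in vesicle retinas, against 3.26, 1.82 and 3.06 CPM in PBS retinas. Its log2 fold change of 2.25 ± 0.32 (adjusted p = 0.00190) was exceeded only by that of Nlrc5 among the 10 genes in retina. Tap2 had 6.56, 7.84 and 3.64 CPM in vesicle retinas, against 1.24, 2.92 and 3.36 CPM in PBS retinas. Vesicle library 3 lay just above PBS library 3, and the log2 fold change of 1.25 ± 0.41 was not called (adjusted p = 0.0680). It was called without vesicle library 3 (adjusted p = 0.0214), with DESeq2 (0.0226) and without the low-count filter (0.0371).

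In the cultures Tap1 had 128, 158 and 132 CPM with vesicles, against 34.7, 29.5 and 33.5 CPM with PBS. Tap2 had 94.1, 118 and 105 CPM with vesicles, against 34.2, 34.0 and 32.6 CPM with PBS. Both subunits were above PBS in every culture, by log2 fold changes of 2.10 ± 0.08 for Tap1 (adjusted p = 2.56e-14) and 1.66 ± 0.08 for Tap2 (adjusted p = 5.12e-13).

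Tapbp (ENSMUSG00000024308), the chaperone that edits which peptides are kept, had the smallest log2 fold change of the loading genes in both tables. It had 83.8, 79.3 and 54.2 CPM in vesicle retinas, against 42.4, 42.6 and 42.8 CPM in PBS retinas. The PBS retinas were nearly equal and the vesicle retinas spread above them, with a log2 fold change of 0.77 ± 0.15 (adjusted p = 0.00935). In the cultures Tapbp had 286, 311 and 293 CPM with vesicles, against 183, 158 and 156 CPM with PBS, a log2 fold change of 0.84 ± 0.06 (adjusted p = 2.89e-09).

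Psmb8 (ENSMUSG00000024338), Psmb9 (ENSMUSG00000096727) and Psmb10 (ENSMUSG00000031897) are the inducible catalytic subunits, known as LMP7, LMP2 and MECL-1. Psmb8 had 13.2, 12.3 and 9.14 CPM in vesicle retinas, against 4.37, 2.98 and 3.36 CPM in PBS retinas, a log2 fold change of 1.69 ± 0.24 (adjusted p = 0.00164). Psmb9 had 7.14, 5.63 and 5.68 CPM in vesicle retinas, against 2.42, 3.22 and 2.46 CPM in PBS retinas. Its log2 fold change was 1.18 ± 0.25 (adjusted p = 0.0119), and the call was lost without vesicle library 1 (adjusted p = 0.0625). Psmb10 had 38.9, 39.3 and 34.9 CPM in vesicle retinas, against 24.9, 24.1 and 22.6 CPM in PBS retinas. It was the most even of the 3 between libraries and the smallest in change, with a log2 fold change of 0.66 ± 0.11 (adjusted p = 0.00389).

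The same subunits were called in the cultures. Psmb8 had 38.2, 43.4 and 40.2 CPM with vesicles, against 6.51, 7.37 and 6.62 CPM with PBS, a log2 fold change of 2.57 ± 0.10 (adjusted p = 1.62e-14). Psmb9 had 27.9, 32.7 and 26.9 CPM with vesicles, against 4.90, 5.47 and 7.16 CPM with PBS, a log2 fold change of 2.32 ± 0.13 (adjusted p = 1.33e-11). Psmb10 had 155, 144 and 132 CPM with vesicles, against 48.2, 46.6 and 52.2 CPM with PBS, a log2 fold change of 1.55 ± 0.07 (adjusted p = 2.52e-13). The groups stood clear of each other in all 3 genes.

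Nlrc5 (ENSMUSG00000074151), the activator dedicated to class I genes, had the lowest level per length and the largest log2 fold change of the 10 genes in both tables. It had 6.24, 3.10 and 2.04 CPM in vesicle retinas, from 98, 49 and 33 counts, against 0.522, 0.608 and 0.901 CPM in PBS retinas, from 8, 10 and 15 counts. The vesicle retinas spread further from each other than the lowest of them stood above PBS, and the log2 fold change was 2.47 ± 0.48 (adjusted p = 0.00804). In the cultures Nlrc5 had 3.94, 4.95 and 4.36 CPM with vesicles, against 0.571, 0.654 and 0.405 CPM with PBS, a log2 fold change of 3.02 ± 0.27 (adjusted p = 3.85e-08).

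Without the lens-richest library of each retina group (vesicle library 2 and PBS library 1) the retina call held for 4 of the 10 genes, namely H2-K1, Tap1, Psmb8 and Psmb10. That fit has 2 libraries a group, and it called 1420 genes in all. The log2 fold changes of the other 5 that had been called were 1.66 for H2-D1, 1.86 for B2m, 0.70 for Tapbp, 1.18 for Psmb9 and 2.45 for Nlrc5, with adjusted p between 0.0543 and 0.128. Of the genes from related lists described further on, H2-Q7, Erap1, Nrd1, Psma7, Psmd11, Sem1, Psmc1, Irf9, Il15, Lilrb4a and Cd74 also lost the call in that fit (adjusted p between 0.0502 and 0.173). Under the other retina alternatives H2-K1, Tap1, Psmb8 and Psmb10 were called each time, and all 10 genes were called under each pericyte alternative.

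Markers of immune cells moved with these genes in the retina, where 10.7% of all tested genes were called higher and 5.19% lower. Of 18 leukocyte and myeloid markers 17 were called higher, and their summed level ran from 1017 to 1519 CPM in vesicle retinas, against 114 to 170 CPM in PBS retinas. Ptprc, the pan-leukocyte CD45, had 36.0, 36.5 and 24.6 CPM in vesicle retinas, against 3.20, 2.01 and 2.46 CPM in PBS retinas, so its lowest vesicle value also fell in library 3. Of 12 neutrophil markers 10 were tested and 9 were called higher. The sums ran from 376 to 821 CPM in vesicle retinas, against 15.9 to 38.6 CPM in PBS retinas. The 20 T and natural killer cell markers summed to 7.90 to 20.5 CPM in vesicle retinas, against 2.01 to 3.12 CPM in PBS retinas. Only 3 of the 20 passed the low-count filter, which a gene can pass through a single group, and 2 were called higher. Cd8a had 26 counts over the vesicle retinas and 26 over the PBS retinas, and Cd3e had 19 and 4, both untested. Of 12 rod markers 8 were called lower, with sums from 73287 to 89246 CPM in vesicle retinas against 109004 to 113874 CPM in PBS retinas. Bulk counts cannot tell apart more cells of a type from more mRNA per cell, and the part of these shifts in the class I result was not tested.

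The pericyte label was only partly borne out by its markers. Pdgfrb had 65.2, 74.1 and 73.2 CPM with vesicles, against 63.1, 59.9 and 56.2 CPM with PBS, and Cspg4 had 15.96 to 19.05 CPM with vesicles against 11.1 to 12.9 CPM with PBS. Rgs5, a marker of brain pericytes, stood between 0.493 and 1.35 CPM with vesicles and between 0.0778 and 0.475 CPM with PBS. Astrocyte markers summed to between 1374 and 1435 CPM with vesicles and between 1397 and 1409 CPM with PBS, and oligodendrocyte-lineage markers to between 617 and 657 CPM with vesicles, against 768 to 794 CPM with PBS. The cells are therefore named by their label only.

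Markers of immune cells were also measured in these cultures, where 10.9% of all tested genes were called higher and 8.9% lower. The 18 leukocyte and myeloid genes summed to between 140 and 205 CPM with vesicles, against 110 to 113 CPM with PBS, most of it from Lyz2, and 5 of 14 tested were called higher. Ptprc had 1.22, 1.07 and 1.10 CPM with vesicles, against 0.0519, 0.386 and 0.324 CPM with PBS (log2 fold change 2.16 ± 0.56, adjusted p = 0.00854). Microglia markers summed to between 473 and 496 CPM with vesicles, against 519 to 558 CPM with PBS, with 1 of 12 tested called lower (Olfml3, named after its values were seen, 297 ± 5.35 CPM with vesicles and 337 ± 14.1 CPM with PBS, SD, n = 3 each). Neutrophil markers summed to between 3.31 and 3.99 CPM with vesicles, against 1.08 to 1.28 CPM with PBS, and the 1 gene tested, Mmp9, was called higher at 1.82 ± 0.27 log2 units. T and natural killer cell markers summed to between 8.38 and 9.44 CPM with vesicles, against 6.83 to 7.34 CPM with PBS, and 1 of 5 tested was called higher (Cd247, named after its values were seen, 2.25 ± 0.49 log2 units). Ccr2 of monocytes, S100a9, Cxcr2, Retnlg and Ly6g of neutrophils, and Cd3e and Cd8a of T cells were at 0 in all 6 cultures. The part of these markers' cells in the class I result was not tested.

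**Figure D3:**
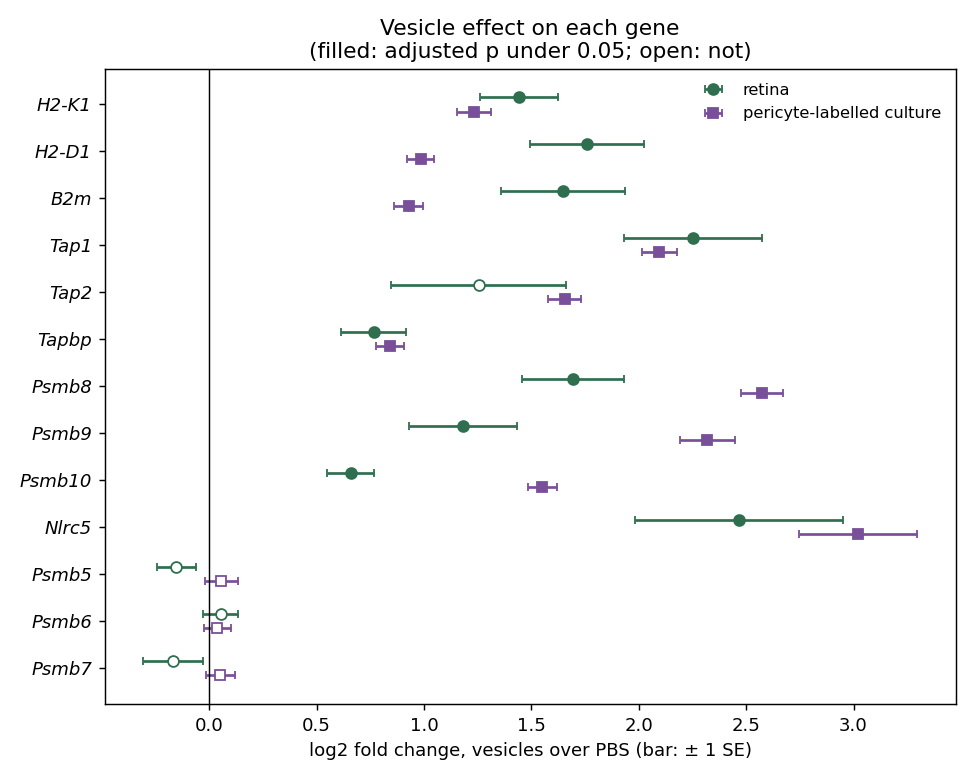
Log2 fold change, vesicles over PBS, with 1 standard error to each side, for the 10 class I genes and 3 constitutive subunits in retina (circles) and pericyte-labelled cultures (squares). Filled symbols have an adjusted p under 0.05. The heavy and light chains lie further right in retina, the inducible subunits further right in the cultures, and the constitutive subunits lie near 0. Of the 10 class I genes only Psmb10 was called for a difference between the settings in the joint fit.

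The question of whether the vesicle effect differed between the settings was put to a joint fit of all 12 libraries over 13712 genes (limma voom). That fit called 1658 genes, 12.1% of those tested, 1031 above 0 (7.52%) and 627 below 0 (4.57%), and 1001 in all without retina PBS library 2. Among the 10 class I genes Psmb10 alone was called, with a difference, retina minus pericyte, of -0.89 ± 0.15 log2 units (adjusted p = 0.000627). It was called under each of the 14 alternatives, with adjusted p between 0.00041 and 0.00484. Psmb8 at -0.89 ± 0.29 (adjusted p = 0.0533) and Psmb9 at -1.15 ± 0.38 (adjusted p = 0.0525) pointed the same way and missed the threshold. Both passed it in an edgeR joint fit, with adjusted p of 0.0214 for Psmb8 and 0.0107 for Psmb9. With limma voom Psmb8 passed without pericyte vesicle library 1 (0.0442), and Psmb9 without pericyte vesicle library 3 (0.0439) or pericyte PBS library 3 (0.0218).

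The heavy and light chains had differences above 0. H2-D1 stood at 0.73 ± 0.28 (adjusted p = 0.120), B2m at 0.71 ± 0.30 (adjusted p = 0.182) and H2-K1 at 0.18 ± 0.23 (adjusted p = 0.678), none called. Without retina vesicle library 3, the low one, the differences were 1.02 for H2-D1 (adjusted p = 2.08e-05) and 0.95 for B2m (adjusted p = 0.0107), both called. The remaining members were not called. Tap1 stood at 0.13 ± 0.42, Tap2 at -0.37 ± 0.44, Tapbp at -0.11 ± 0.17 and Nlrc5 at -0.72 ± 0.62 (lowest adjusted p = 0.519).

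The constitutive subunits gave the comparison within the proteasome. In retina the log2 fold changes were -0.15 ± 0.09 for Psmb5, 0.05 ± 0.08 for Psmb6 and -0.17 ± 0.14 for Psmb7, with adjusted p of 0.299 or more. In the cultures they were 0.06 ± 0.08 for Psmb5, 0.04 ± 0.06 for Psmb6 and 0.05 ± 0.07 for Psmb7, with adjusted p of 0.692 or more. None of the 6 values was called in edgeR, DESeq2 or limma voom or under any other alternative, and 0 of the 6 had an unadjusted p under 0.05. Psmb5 nevertheless lay lower in every vesicle retina, at 101, 98.3 and 96.7 CPM, against 106, 120 and 103 CPM in PBS retinas, an arrangement 16.2% of all tested genes showed (16.4% in the cultures). The other 5 comparisons overlapped.

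Each inducible subunit was then set against the constitutive subunit whose place it takes, a ratio within a library that needs no scaling between libraries. Per 100 Psmb6 mRNAs, on counts divided by the length of the principal transcript, Psmb9 came to 2.26, 1.76 and 1.77 in vesicle retinas, against 0.816, 1.01 and 0.799 in PBS retinas. Per 100 Psmb7, Psmb10 came to 17.3, 17.6 and 14.5 in vesicle retinas, against 7.77, 10.50 and 10.07 in PBS retinas. Per 100 Psmb5, Psmb8 came to 7.20, 6.93 and 5.22 in vesicle retinas, against 2.28, 1.37 and 1.80 in PBS retinas. The ratios of counts were 2.19, 1.75 and 3.57 times as high with vesicles (log2 differences 1.13 ± 0.16, 0.81 ± 0.16 and 1.83 ± 0.26), and the constitutive form remained the larger of each pair in every retina.

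In the cultures Psmb9 came to 8.93, 11.4 and 10.3 per 100 Psmb6 with vesicles, against 1.83, 1.91 and 2.50 with PBS. Psmb10 came to 105, 109 and 106 per 100 Psmb7 with vesicles, against 40.4, 33.8 and 39.1 with PBS, so that with vesicles both mRNAs stood at about the same level per length. Psmb8 came to 26.4, 35.4 and 34.9 per 100 Psmb5 with vesicles, against 5.08, 5.92 and 5.73 with PBS. The ratios of counts were 4.91 times as high for Psmb9, 2.83 times for Psmb10 and 5.73 times for Psmb8 (log2 differences 2.30 ± 0.17, 1.499 ± 0.08 and 2.52 ± 0.15). All 6 ratios separated the groups fully, and the 2-sided exact permutation test over 3 against 3 libraries gave p = 0.1 for each, also after adjustment over the 6, which is the smallest p this design allows.

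The levels per length depend on the transcript chosen. With all exons of a gene joined, Psmb10 came to between 237 and 247 per 100 Psmb7 in vesicle cultures, against 76.7 to 91.7 in PBS cultures, and Psmb8 to between 12.7 and 17.02 per 100 Psmb5, against 2.44 to 2.85. The differences between vesicles and PBS do not depend on it, since length cancels. The inducible and constitutive transcripts were between 65.7% and 69.6% identical over their aligned bases with shared runs of at most 18 bases.

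**Figure D4:**
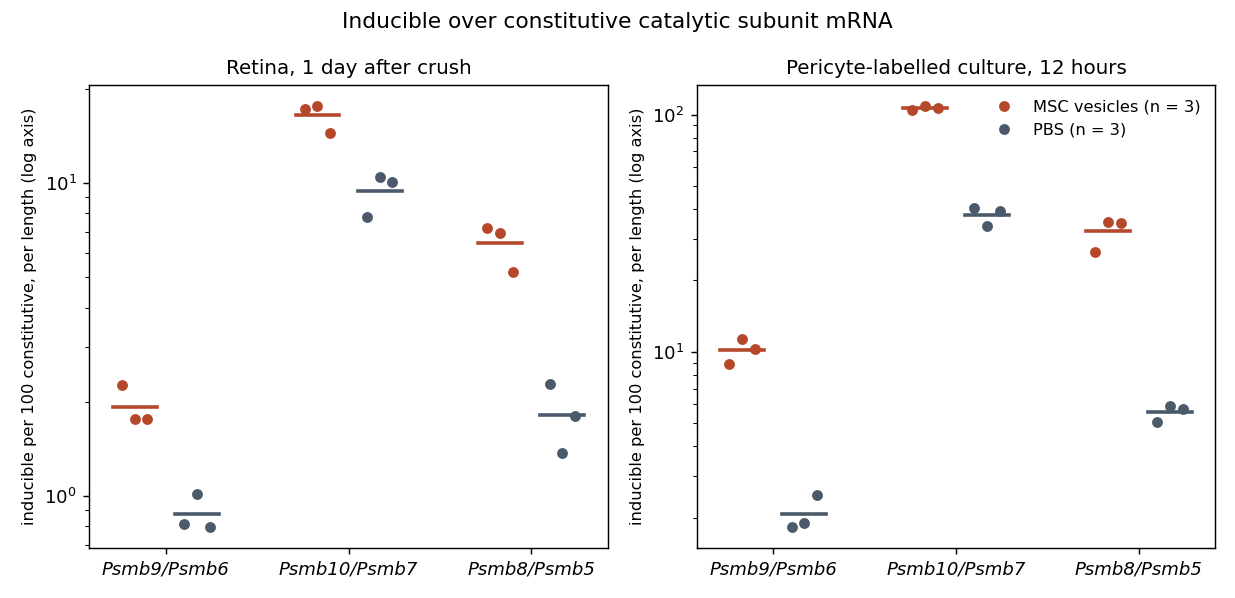
Inducible subunit mRNA per 100 of its constitutive counterpart in each library, per transcript length, on log axes, with vesicle libraries in red left of PBS libraries in grey. Lines are group means (n = 3 each). Vesicle libraries lie above PBS libraries in all 6 comparisons, and Psmb10 with vesicles reaches 105 to 109 per 100 Psmb7 in the pericyte-labelled cultures.

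Within a table the 10 mRNAs can be ordered by RPKM, the CPM divided by the length of the principal transcript in kilobases. In vesicle retinas B2m led with 464 to 886 RPKM, followed by H2-K1 with 64.9 to 109 and H2-D1 with 46.4 to 88.7, which overlapped. Psmb10 with 26.6 to 29.99 and Tapbp with 18.7 to 28.9 overlapped as well, and below them stood Psmb8 with 5.61 to 8.10 RPKM. Psmb9 and Tap1 overlapped at 4.16 to 5.28 and 3.03 to 6.13 RPKM, and Tap1 also overlapped Psmb8. Tap2 with 1.06 to 2.28 and Nlrc5 with 0.269 to 0.824 came last. PBS retinas gave the same order of means, from B2m at 166 to 276 RPKM and H2-K1 at 32.9 to 35.2 RPKM to Nlrc5 at 0.0689 to 0.119. With all exons joined the order changed in part, with mean H2-D1 at 58.9 RPKM above mean H2-K1 at 50.6 in vesicle retinas.

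The cultures had another order. With vesicles B2m had 143 to 171 RPKM, Psmb10 101 to 118, Tapbp 98.7 to 107 and H2-K1 75.2 to 96.7, of which Psmb10 and Tapbp overlapped. Tap1 followed with 43.5 to 53.5 RPKM, above H2-D1 with 37.6 to 39.5, Tap2 with 27.4 to 34.3, Psmb8 with 23.5 to 26.7 and Psmb9 with 19.9 to 24.2, the last pair overlapping, and Nlrc5 stood at 0.520 to 0.654. With PBS, H2-D1 at 19.01 to 19.82 RPKM stood above Tap1 at 9.99 to 11.8, the reverse of their order with vesicles. Such orders depend on the transcript chosen. With all exons joined, mean H2-D1 stood above mean Tap1 with vesicles too (31.3 and 25.5 RPKM). Tapbp at 53.7 to 63.0 RPKM with PBS stood above Psmb10 at 35.6 to 39.9, while with vesicles they overlapped. The means of Psmb8 and Psmb9 also changed order, at 24.9 and 21.6 RPKM with vesicles and 4.20 and 4.32 with PBS.

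The other heavy chains and class I-like genes were taken as a list of 31, of which 12 were tested in retina. Of these 4 were called higher, against 10.7% of all tested genes, and none lower, with a median log2 fold change of 0.89. H2-Q10, a secreted class I molecule of liver, had 10.96, 10.8 and 5.43 CPM in vesicle retinas, against 0.196, 0.243 and 0.300 CPM in PBS retinas (log2 fold change 5.15 ± 0.42, adjusted p = 0.000119). H2-Q4 followed with 12.3 ± 4.21 CPM in vesicle retinas and 2.75 ± 0.484 CPM in PBS retinas (SD, n = 3 each; log2 fold change 2.16 ± 0.29). H2-Q6 at 1.13 ± 0.26 and H2-Q7 at 0.97 ± 0.27 were also called, and both depended on single libraries. H2-Q6 lost it without vesicle library 1 or PBS library 2 (adjusted p = 0.0770 and 0.0701), and H2-Q7 without any 1 of the 6 libraries (adjusted p between 0.0502 and 0.140).

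In the cultures 20 genes of that list were tested, 11 were called higher and 1 lower, with a median of 1.20. Of all tested genes there, 10.9% were called higher and 8.9% lower. H2-T23 (Qa-1), which presents leader peptides of other class I chains to natural killer cell receptors, had 125, 147 and 132 CPM with vesicles, against 58.5, 56.1 and 60.2 CPM with PBS (log2 fold change 1.21 ± 0.07, adjusted p = 1.12e-11). H2-T22, a ligand of some gamma-delta T cells, had 124, 118 and 113 CPM with vesicles, against 48.4, 48.9 and 51.9 CPM with PBS (1.25 ± 0.06, adjusted p = 2.17e-12). H2-Q4 rose by 1.94 ± 0.09 and H2-T24 by 1.89 ± 0.15 log2 units. The gene called lower was Cd1d1, which presents lipids, with 1.70 ± 0.666 CPM with vesicles and 3.54 ± 0.458 CPM with PBS (SD, n = 3 each; log2 fold change -1.06 ± 0.27), and it was named after its values were seen. H2-Q6 and H2-Q7 were 94.9% identical over 1029 aligned bases with a shared run of 265, so their split is uncertain.

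Most partners of peptide loading and trimming were not called. In retina 3 of 17 were called higher and none lower, with a median of 0.09, and in the cultures 3 of 17 and none, with a median of 0.04. Of all tested genes 10.7% were called higher in retina and 10.9% in the cultures. Erap1, which trims peptides inside the endoplasmic reticulum, had 40.9, 47.9 and 29.3 CPM in vesicle retinas, against 21.7, 22.9 and 19.04 CPM in PBS retinas (log2 fold change 0.89 ± 0.18, adjusted p = 0.00866). In the cultures Erap1 had 127, 121 and 125 CPM with vesicles, against 84.3, 87.3 and 90.0 CPM with PBS (0.51 ± 0.06, adjusted p = 7.76e-07). Tapbpl, the tapasin-related editor, had a log2 fold change of 0.96 ± 0.30 in retina that was not called (adjusted p = 0.0562, and 0.0116 without vesicle library 3) and rose by 1.09 ± 0.09 in the cultures (adjusted p = 5.65e-09). Sppl2a, an intramembrane protease, was the third gene called in the cultures at 0.25 ± 0.06. In retina Sppl2a at 0.56 ± 0.13 and Nrd1, a peptidase known to make class I ligands, at 0.39 ± 0.10 were called, and both lost the call without vesicle library 1, vesicle library 2, PBS library 2 or PBS library 3 (adjusted p between 0.053 and 0.131).

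For the rest of the proteasome the list medians were near 0. Of all tested genes 10.7% were called higher and 5.19% lower in retina, and 10.9% and 8.9% in the cultures. Among 11 other 20S core subunits 2 were called higher in retina and 3 in the cultures, with medians of 0.08 and 0.13, and the largest log2 fold change was 0.38 ± 0.06 for Psma6 in the cultures. Among 19 subunits of the 19S cap 2 were called higher and 1 lower in retina, and none in the cultures by edgeR, DESeq2 or limma voom, with 1 of the 19 at an unadjusted p under 0.05 in edgeR. The 20S and 19S calls in retina (Psma3, Psma7, Psmd11, Sem1 and Psmc1) were at most 0.49 in size on the log2 scale, and each was lost without vesicle library 1, without vesicle library 2 or without PBS library 2. In the cultures the call of Psma2 at 0.19 ± 0.06 was lost without vesicle library 1 or any 1 PBS library (adjusted p between 0.0617 and 0.157).

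The interferon-inducible activator PA28, which opens the core for peptides, had the largest changes among the activators and assembly factors. For the calls in this list, 10.7% of all tested genes were called higher in retina and 10.9% in the cultures. Psme1 had 89.4, 104 and 78.1 CPM in vesicle retinas, against 62.2, 62.6 and 49.1 CPM in PBS retinas (0.64 ± 0.13, adjusted p = 0.0108). Psme2 had 68.7, 70.5 and 50.3 CPM in vesicle retinas, against 41.3, 39.8 and 36.2 CPM in PBS retinas (0.69 ± 0.14, adjusted p = 0.00861). In the cultures Psme1 rose by 0.69 ± 0.06 and Psme2 by 0.76 ± 0.07 log2 units (adjusted p = 5.76e-08 and 7.12e-08). These were the only 2 of 12 activators and assembly factors called in retina, while the cultures added Psmd10 at 0.37 ± 0.09 and Pomp, the assembly chaperone, at 0.19 ± 0.06, whose call was lost without 5 of the 6 libraries taken singly (adjusted p between 0.0647 and 0.177).

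**Figure D5:**
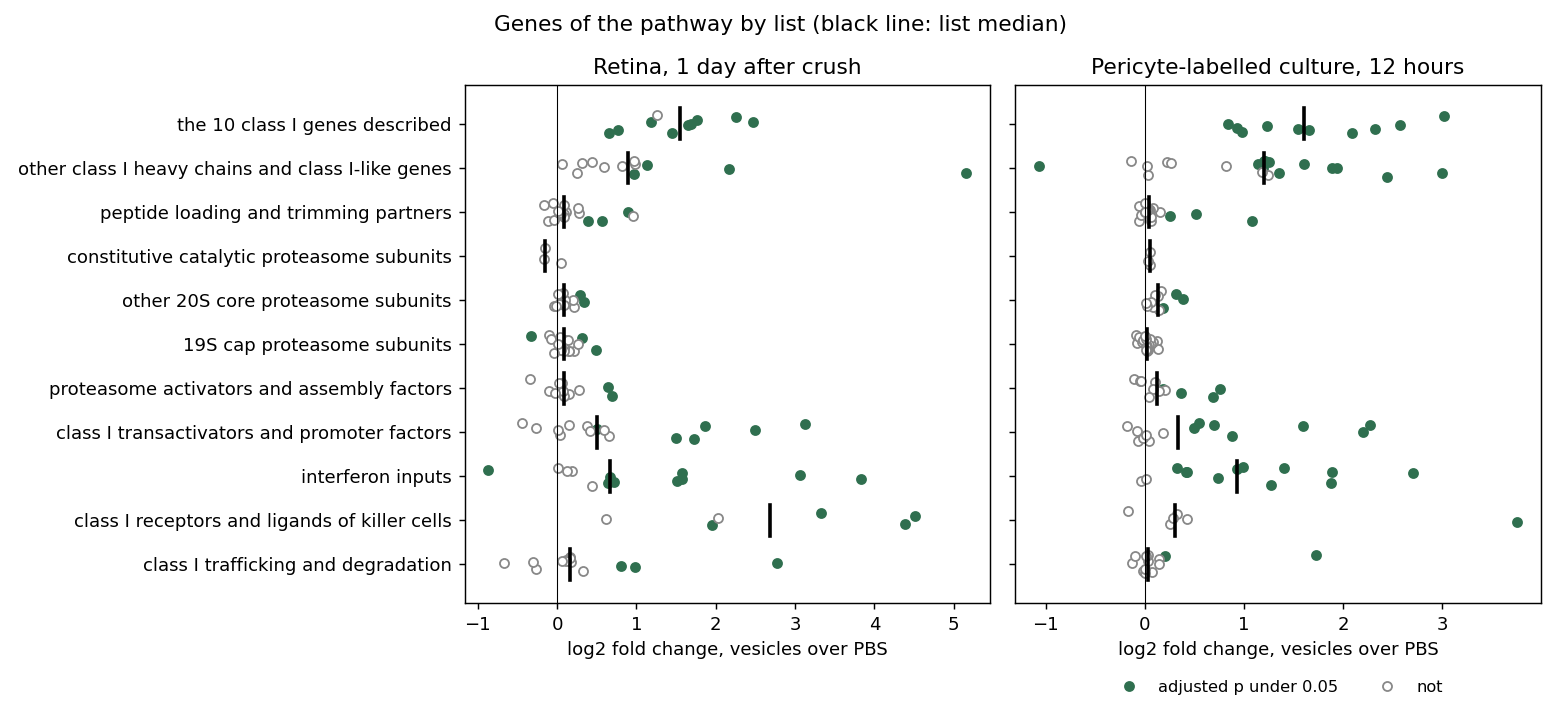
Log2 fold change, vesicles over PBS, of each tested gene in the 10 class I genes and 10 related lists, in retina (left) and pericyte-labelled cultures (right). Filled points have an adjusted p under 0.05, black lines are list medians, and vertical jitter carries no meaning. The 10 class I genes have medians of 1.55 and 1.60, while the 20S, 19S and constitutive lists lie near 0.

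Factors that act on class I promoters were called higher in 6 of 15 tested genes in retina and 7 of 14 in the cultures, and none was lower. Of all tested genes 10.7% were called higher in retina and 10.9% in the cultures. Irf1, which binds the interferon element, had 29.8, 25.9 and 20.9 CPM in vesicle retinas, against 8.35, 6.93 and 7.87 CPM in PBS retinas (1.73 ± 0.17, adjusted p = 0.00025). In the cultures Irf1 had 110, 119 and 112 CPM with vesicles, against 25.3, 25.8 and 23.2 CPM with PBS (2.20 ± 0.07, adjusted p = 5.45e-16). Nfkb1, a subunit of NF-kB, rose by 1.49 ± 0.18 in retina and by 0.88 ± 0.06 in the cultures. Irf8, which is also a myeloid lineage factor, had 12.7 ± 2.96 CPM in vesicle retinas and 1.44 ± 0.666 CPM in PBS retinas (SD, n = 3 each), and Rela rose by 0.50 ± 0.06 in the cultures.

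Rfx5 and Creb1 bind beside the Y box in the complex that Nlrc5 joins, and they were named after their values were seen. Rfx5 rose by 0.55 ± 0.09 in the cultures (adjusted p = 6.86e-05) and stood at -0.44 in retina without a call (adjusted p = 0.106), a difference of -0.99 ± 0.22 (adjusted p = 0.00534). Creb1 was called in retina at 0.51 ± 0.14 (adjusted p = 0.0324, lost without vesicle library 1, vesicle library 2, PBS library 2 or PBS library 3) and stood at -0.07 in the cultures, a difference of 0.61 ± 0.14 (adjusted p = 0.00772). Ciita, the class II counterpart of Nlrc5, had 1.21, 1.45 and 1.30 CPM in vesicle retinas, against 0.261, 0.182 and 0.240 CPM in PBS retinas (2.50 ± 0.44, adjusted p = 0.00477). In the cultures it had 14 counts over the vesicle libraries and 25 over the PBS libraries and did not pass the filter.

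The next list held interferon receptors, their signalling genes and cytokines such as Tnf and Il15. In retina 8 of 13 tested were called higher and 1 lower, and in the cultures 11 of 13 were called higher. Of all tested genes 10.7% were called higher and 5.19% lower in retina, and 10.9% higher in the cultures. Stat2 rose by 1.51 ± 0.14 in retina (adjusted p = 0.000201) and by 1.88 ± 0.07 in the cultures (adjusted p = 1.72e-14). Irf9, which binds DNA in a complex with Stat2, had 103, 84.7 and 55.3 CPM in vesicle retinas, against 11.9, 5.96 and 11.1 CPM in PBS retinas (3.07 ± 0.35, adjusted p = 0.00299), and rose by 1.27 ± 0.06 in the cultures. Ifnar2, a chain of the type I interferon receptor, rose by 1.57 ± 0.18 in retina. Ifngr1, the ligand-binding chain for interferon gamma, had 123, 113 and 108 CPM in vesicle cultures, against 58.3, 57.1 and 57.3 CPM in PBS cultures (1.00 ± 0.06), and was not called in retina at 0.19 (adjusted p = 0.311). Il15, a cytokine that sustains natural killer and CD8 T cells, was the 1 gene called lower in retina at -0.87 ± 0.25 (adjusted p = 0.0426, lost without any 1 library but vesicle library 3, with adjusted p between 0.0592 and 0.132), while in the cultures it rose by 1.89 ± 0.29.

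Interferon mRNAs themselves were at or near 0, and they are named here after their values were seen. In retina Ifnb1, Ifna1, Ifna2, Ifna4, Ifnl2 and Ifnl3 had no count in any library, where 3 counts would have been 0.180 to 0.196 CPM, and Ifng had 2, 0 and 0 counts in vesicle retinas and 0, 0 and 2 counts in PBS retinas. In the cultures Ifnb1 had 1, 10 and 4 counts with vesicles and 1, 0 and 0 counts with PBS, under the filter and untested. Ifng had no count with vesicles and 0, 1 and 0 counts with PBS. Such counts, at 1 time in each setting, do not show whether an interferon gene was transcribed earlier.

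A list of 16 genes held receptors through which lymphocytes and myeloid cells meet class I, with checkpoint ligands such as Cd274. In retina only 6 of the 16 passed the low-count filter, and 4 of those were called higher. A gene can pass that filter through a single group. Klra2 did so, with 231 counts over the vesicle retinas and 10 over the PBS retinas. Of all tested genes 10.7% were called higher in retina and 10.9% in the cultures. Klra2, a receptor of the Ly49 family, had 4.85 ± 0.924 CPM in vesicle retinas and 0.204 ± 0.0870 CPM in PBS retinas (SD, n = 3 each). Lilrb4a had 68.9 ± 18.4 CPM in vesicle retinas and 3.30 ± 2.04 CPM in PBS retinas, and Pirb had 17.8 ± 5.15 CPM in vesicle retinas and 1.77 ± 1.42 CPM in PBS retinas. Cd274 had 8.87 ± 0.667 CPM in vesicle retinas and 2.30 ± 0.412 CPM in PBS retinas. The call of Pirb was lost without PBS library 3 (adjusted p = 0.0510). Klra2, Lilrb4a and Pirb are receptors carried by leukocytes, whose markers rose in the same libraries as given above. In the cultures only Cd274, the checkpoint ligand PD-L1, was called, with 11.4, 13.2 and 12.1 CPM with vesicles, against 0.986, 1.04 and 0.702 CPM with PBS (3.75 ± 0.18, adjusted p = 1.30e-12).

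Trafficking and degradation genes were called higher in 3 of 13 in retina and 2 of 13 in the cultures, against 10.7% and 10.9% of all tested genes. Snap23 and Vamp3, fusion proteins used in cross-presentation, rose by 0.98 ± 0.16 and 0.81 ± 0.17 in retina, the call of Vamp3 being lost without PBS library 2 (adjusted p = 0.0603). Cd74, the invariant chain, had 38.7 ± 8.81 CPM in vesicle retinas and 5.69 ± 2.55 CPM in PBS retinas, and in the cultures 2.30 ± 0.402 CPM with vesicles and 0.692 ± 0.0852 CPM with PBS (SD, n = 3 each). Ube2j1 in the cultures at 0.20 ± 0.06 lost its call without any 1 of 6 libraries but vesicle library 2 (adjusted p between 0.0508 and 0.154).

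Of 12365 other genes tested in both tables at 1 CPM or more, 5 followed the mean of the 10 class I genes most closely over the 12 libraries. The measure was the root mean square distance on log2(CPM + 0.5) after subtraction of each table's PBS mean. Trim25, a ubiquitin ligase of RNA sensing, was closest at 0.134 log2 units, with Stat2 at 0.151, Trim12a at 0.199, and Mmp9 and Gm20559 at 0.216. The 10 genes themselves lay between 0.214 for H2-K1 and 0.505 for Tapbp from their own mean. Mmp9 is also on the neutrophil marker list used above, and the members share their 12 libraries with every gene compared.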

How the data were processed

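Bulk RNA of 12 mouse samples was measured. The authors deposited raw read counts per gene, one table for retina and one for the pericyte-labelled cells. Per the labels, extraction used Trizol and library preparation an NEBNext Ultra kit. The submitters' processing notes name FastQC 0.11.8, HISAT2 2.0.5, featureCounts 1.5.0-p3 and limma. The genome build and the strand setting of the counting are not stated there.

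Each table was fitted alone with edgeR 4.0.16 (R 4.3.3), using its quasi-likelihood test, TMM scaling, a low-count filter at 10 and Benjamini-Hochberg adjustment over all tested genes, with an adjusted p under 0.05 as a call. The difference between tables came from limma 3.58.1 (voom with quality weights per table), and subunit ratios used counts plus 0.5 with an exact permutation test. Alternatives were DESeq2 1.42.0, limma voom, other scalings and filters, the replicate number as a block, and leaving out libraries. No pair of libraries agreed within sampling noise (lowest chi-square per degree of freedom 6.12), and the fit of each table with all 6 libraries had 4 residual degrees of freedom. Lengths came from the GENCODE M21 principal transcripts, which may not be the authors' annotation. The fits were also run on simulated counts, whose outcome is not given here, so no statement rests on them.

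All 10 members were described in both tables, with Psmb5, Psmb6 and Psmb7. Of each related list, up to 4 genes per table in order of p were named, and genes outside that rule are said to be chosen after their values were seen or are listed with their calls. The members and lists were chosen with earlier results of these data known. Values of 1 gene of the related lists are not reported here, though it is part of the list counts.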

Additional observations from a re-analysis of the deposited data

Results flagged for a closer look

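Of 67 genes in the joint limma voom fit that are members, constitutive subunits or named genes of the pathway lists, 15 (22.4%) were called for a difference of the vesicle effect between the settings (adjusted p under 0.05), against 12.1% of all 13712 genes tested. The named genes were picked by their p within each table, so that share is a description. Cell type markers were not among them. Each difference is given as retina minus pericyte on the log2 scale. Psmb10 at -0.89 was the 1 member among them.

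Negative differences, with the effect lower in retina, were found for Il15 at -2.81 (adjusted p = 0.000107), Ifngr1 at -0.82 (0.000402), Cd274 at -1.81 (0.00261), H2-Q6 at -1.88 (0.00292) and Rfx5 at -0.99 (0.00534). H2-T22 at -0.68 (0.0386) and Psma6 at -0.40 (0.0276) lost the call under 8 and 6 of 14 alternatives. Il15 was called in both settings with opposite signs.

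Positive differences were found for Lilrb4a at 4.38 (adjusted p = 0.00661), H2-Q10 at 3.65 (0.00339), Irf9 at 1.81 (0.00393), Snap23 at 0.82 (0.00740) and Creb1 at 0.61 (0.00772). Ifnar2 at 0.81 (0.0290) and Vamp3 at 0.72 (0.0133) lost the call under 7 and 2 of 14 alternatives. Lilrb4a is a receptor of myeloid cells, whose markers were also higher in vesicle retinas, and their part in its difference was not tested.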

How the results depend on the processing

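No result changed sign past the threshold under any alternative run. Without 1 library the retina fit called between 1328 and 2909 genes (2449 with all) and between 8 and 10 members, and the pericyte fit between 2412 and 3500 genes. Without the lens-richest library of each retina group 1420 genes and 4 members were called. The difference between settings was called in between 1001 and 2149 genes without 1 library, the lowest without retina PBS library 2 and the highest without retina vesicle library 3. Higher calls in the cultures made up 55.1% of all calls, against 44.3% with upper-quartile scaling and 42.4% with library totals. Same-numbered libraries did not deviate together (correlations of 0.211, -0.198 and -0.0346 in retina and 0.0183, 0.0274 and -0.0238 in the cultures), so numbers were not taken as pairs. With the replicate block 1919 retina genes, 3287 pericyte genes and 1751 differences were called. The block brought the differences of B2m (adjusted p = 0.0117) and Psmb8 (0.0491) under the threshold. Under it the retina calls of H2-Q7, Nrd1, Psma3, Psma7, Sem1, Psmc1, Lilrb4a and Il15 (adjusted p between 0.0585 and 0.0915) and the pericyte calls of Psma2 (0.0510) and Pomp (0.0531) were lost. The mean ratio differences cannot move under the block, since each number occurs once in each group. With 3 libraries a group and 1 time point in each setting, small changes in low-count genes such as Nlrc5 and Tap2 are poorly resolved.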
